A study of Homo sapiens with 6 samples.

Results

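IFITM1, IFITM2, IFITM3 and BST2 encode membrane proteins that restrict viruses. They were followed by name in an RNA-Seq table of 23524 genes from Hep G2 cells, a human line from hepatocellular carcinoma, and all 4 were found. The 4 genes were chosen by the same contrast that is described here, because IFITM1 was higher in every EFTUD2-overexpressing library, so their levels in control and EFTUD2 cells are a description and carry no test. Control cells carried the empty vector (3 libraries, replicates 1 to 3). EFTUD2 cells stably overexpressed EFTUD2, a GTPase of the U5 part of the spliceosome (3 libraries, replicates 1 to 3). Both kinds of cell were made with lentivirus and selected with puromycin, so infection and selection were shared by the groups. The labels do not say whether the 3 libraries of a group came from separate cultures, so the spread between them may be technical.

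Interferon-induced transmembrane (IFITM) proteins are small proteins of the CD225 family. They sit in the membranes that enveloped viruses must fuse with, IFITM1 mostly at the cell surface and IFITM2 and IFITM3 mostly in endosomes and lysosomes, and they hinder that fusion. Tetherin, the product of BST2, is anchored in the membrane at both ends and holds budding virions on the surface of the cell. All 4 genes are known as interferon-stimulated genes, and many cells also express them without added interferon. In that response, interferons bind their receptors, kinases such as JAK1 and TYK2 are activated at the receptors, and transcription factors then bind interferon-stimulated response elements (ISREs) in promoters. Gamma-activated sites (GAS) are the elements best known from the response to interferon gamma.

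The 3 IFITM genes lie side by side on chromosome 11, and BST2 lies on chromosome 19 (GRCh38.p14, RefSeq). IFITM2 spans chr11:307816-309395 and IFITM1 chr11:314040-315272, both on the plus strand. IFITM3 spans chr11:319676-320860 and BST2 chr19:17402939-17405630, both on the minus strand. The promoters of IFITM1, IFITM3 and BST2 are shown because the members are known by their interferon response. Each sequence runs 5′ to 3′ on the strand of its gene, from 250 bases before the annotated start to 50 bases from it, as RefSeq gives it. Capitals mark ISRE matches, searched on both strands as a pair of GAAA blocks with any 2 bases between them.
IFITM1 promoter, chr11:313790-314089, plus strand: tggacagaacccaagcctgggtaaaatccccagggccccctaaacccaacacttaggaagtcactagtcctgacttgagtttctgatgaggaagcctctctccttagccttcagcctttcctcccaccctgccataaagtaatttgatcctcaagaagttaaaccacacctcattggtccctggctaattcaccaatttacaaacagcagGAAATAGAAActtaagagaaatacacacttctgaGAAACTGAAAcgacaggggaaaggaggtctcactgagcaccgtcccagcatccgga
IFITM3 promoter, chr11:320811-321110, minus strand: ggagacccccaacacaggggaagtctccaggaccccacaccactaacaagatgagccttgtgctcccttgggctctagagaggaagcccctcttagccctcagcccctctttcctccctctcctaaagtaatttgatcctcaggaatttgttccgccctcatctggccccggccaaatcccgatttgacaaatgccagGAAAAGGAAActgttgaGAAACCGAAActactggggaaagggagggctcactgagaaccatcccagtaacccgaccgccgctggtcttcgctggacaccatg
BST2 promoter, chr19:17405581-17405880, minus strand: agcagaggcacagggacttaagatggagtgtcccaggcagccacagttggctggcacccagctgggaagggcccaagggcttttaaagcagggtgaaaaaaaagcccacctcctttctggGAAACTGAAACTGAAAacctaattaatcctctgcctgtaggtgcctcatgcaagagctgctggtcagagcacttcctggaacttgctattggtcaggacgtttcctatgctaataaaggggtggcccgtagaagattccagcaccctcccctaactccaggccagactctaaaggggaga

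Each of these 3 promoters held 2 ISRE matches. With the annotated start counted as base 0, those of IFITM1 ran from -40 to -31 and from -6 to 3, and those of IFITM3 from -52 to -43 and from -35 to -26. In BST2 the matches, from -130 to -121 and from -124 to -115, overlapped in 1 block farther from the start. ISRE matches were found in 1255 of 35116 RefSeq promoters of this length (3.57%). GAS matches (TTC and GAA with any 3 bases between them, either strand) were present once in IFITM1, from -12 to -4, where the last bases overlapped an ISRE match. GAS matches in BST2 ran from -136 to -128, overlapping the first ISRE match, and from -58 to -50. IFITM3 held none in this window, and 2689 of all promoters held one (7.66%). The longest stretch shared by the IFITM1 and IFITM3 promoters was 19 bases, against 11 for IFITM1 and BST2. Among the 430 tested genes with an ISRE match, the median log2 fold change was -0.08, against -0.10 for the 11092 tested genes with a promoter, and 43 of the 430 against 7.6% of all with a promoter were higher in every EFTUD2 library than in every control library. A match is only a description of these letters.

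The authors deposited FPKM, which are fragments scaled to transcript length and library size, so levels of different genes can be compared on this scale. FPKM summed to between 404342 and 434542 per library. The number of reads behind a value is unknown. EFTUD2 itself (Entrez gene 9343) stood at 41.14, 54.35 and 46.34 FPKM in the control libraries and at 106.6, 102.9 and 109.5 FPKM in the EFTUD2 libraries, so the groups did not overlap. Its ratio of means was 2.25 and its log2 fold change 1.16 (SE 0.12, adjusted p = 0.13 from limma over 17222 genes). Transcripts of the vector and of the cells' own gene cannot be told apart in these values. The EFTUD2 libraries differed among themselves in other genes. Vimentin (VIM) stood at 0.06, 0.08 and 0.12 FPKM in control, and its EFTUD2 libraries, in replicate order, had 23.2, 59.6 and 2.87 FPKM. CD44, KRT17 and LDHB were likewise highest in EFTUD2 replicate 2 and lowest of the 3 in replicate 3, with KRT17 at 66.9, 135.1 and 9.29 FPKM. These 4 genes were named because earlier results of these data had shown them to differ between the EFTUD2 libraries.

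IFITM1 (Entrez gene 8519), the member at the cell surface, stood at 24.05, 19.91 and 23.83 FPKM in the control libraries, given here and after in replicate order, and at 54.34, 70.24 and 50.74 FPKM in the EFTUD2 libraries. Every EFTUD2 library was above every control library. The means were 22.6 ± 2.33 and 58.4 ± 10.4 FPKM (SD, n = 3 each), a ratio of 2.59. On the log2(FPKM + 1) scale the difference was 1.32 (SE 0.15). IFITM1 was at rank 129 of the 17222 genes tested when these were ordered from the highest log2 fold change down.

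IFITM2 (Entrez gene 10581), a member of endosomes, stood at 75.32, 57.65 and 72.08 FPKM in control and at 122.3, 136.5 and 125.8 FPKM in EFTUD2 libraries. The groups did not overlap, and the EFTUD2 libraries lay close together. The means were 68.35 ± 9.41 and 128.2 ± 7.36 FPKM (SD, n = 3 each), a ratio of 1.88, and the log2 fold change was 0.91 (SE 0.13).

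IFITM3 (Entrez gene 10410), the endosomal member best known for restricting influenza virus, was the most abundant of the 4 genes. It stood at 245.7, 225.5 and 264.8 FPKM in control and at 409.7, 509.1 and 311.1 FPKM in EFTUD2 libraries. The groups did not overlap, but the EFTUD2 libraries were far apart, with a coefficient of variation of 24.1% against 7.99% in control. The means were 245.3 ± 19.6 and 410.0 ± 99.0 FPKM (SD, n = 3 each), a ratio of 1.67, and the log2 fold change was 0.71 (SE 0.19).

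BST2 (Entrez gene 684) stood at 38.13, 52.48 and 52.96 FPKM in control and at 63.28, 75.61 and 48.84 FPKM in EFTUD2 libraries. The groups overlapped, since EFTUD2 replicate 3 was below control replicates 2 and 3. The means were 47.9 ± 8.43 and 62.6 ± 13.4 FPKM (SD, n = 3 each), a ratio of 1.31, and the log2 fold change was 0.37 (SE 0.20). The overlap depended on the scaling. When each library was scaled by its median ratio to the geometric mean over libraries, BST2 was at 36.25, 49.27 and 50.78 in control and at 63.27, 74.73 and 56.73 in EFTUD2 libraries, with no overlap. Quantile normalization also left no overlap, with 51.66 as the highest control value and 52.99 as the lowest EFTUD2 value. Scaling to a common FPKM sum kept the overlap, with EFTUD2 replicate 3 at 47.05 against controls at 39.48, 52.74 and 53.27. The log2 fold change of BST2 was 0.22 without control replicate 1 and 0.23 without EFTUD2 replicate 2. IFITM1, IFITM2 and IFITM3 did not overlap between the groups under any of the 4 scalings, the deposited values included.

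**Figure D1:**
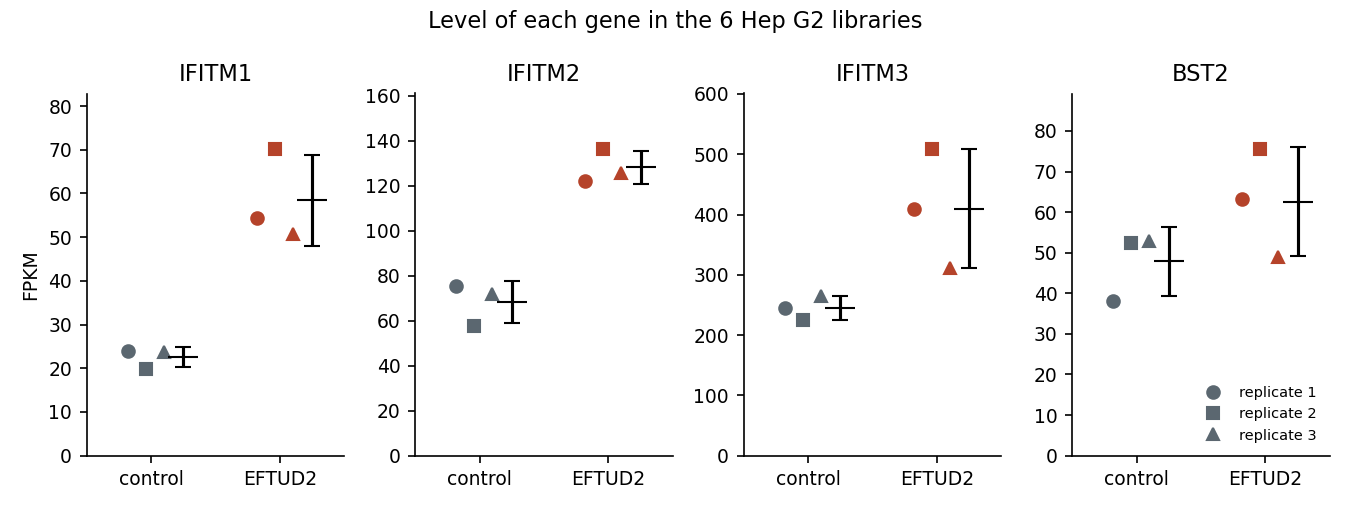
FPKM (linear axes from 0, 1 scale per gene) of IFITM1, IFITM2, IFITM3 and BST2 in the 3 control and 3 EFTUD2 libraries, with a symbol for each replicate and a bar for the mean ± SD. The groups are apart for the 3 IFITM genes, and EFTUD2 replicate 3 of BST2, at 48.84 FPKM, lies among the controls.

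In all, 3 of the 4 genes were higher in every EFTUD2 library than in every control library. The same held for 1364 of the 17222 genes tested (7.92%), and 3337 genes (19.4%) were lower in every EFTUD2 library. Nothing is read from the count of 3, because the genes were selected on this contrast. By limma, 0 genes (0%) had an adjusted p under 0.05, while at an unadjusted p under 0.05 there were 757 higher (4.40%) and 1361 lower genes (7.90%). Median of ratios scaling turned this split to 1202 higher and 756 lower. The median log2 fold change over all genes tested was -0.07, and 37.3% were positive, against 0.37 to 1.32 in the 4 members. Taking 1 EFTUD2 library at a time, replicates 1 and 2 had all 4 members above every control, and replicate 3 had 3 of 4. Over all genes tested the shares above every control were 20.4%, 23.7% and 25.8% for replicates 1 to 3.

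The order of levels was IFITM3, IFITM2, BST2, IFITM1 from high to low in 5 of the 6 libraries. In EFTUD2 replicate 3, IFITM1 at 50.74 FPKM was above BST2 at 48.84 FPKM. IFITM3 and IFITM2 did not overlap in either group, nor did IFITM2 and BST2. BST2 and IFITM1 were apart in control (38.13 and above against 24.05 and below) and overlapped in EFTUD2 cells.

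The share of each gene in the IFITM total was also followed. IFITM1 made up 6.97%, 6.57% and 6.61% of the summed FPKM of IFITM1, IFITM2 and IFITM3 in control, and 9.27%, 9.81% and 10.4% in EFTUD2 libraries. IFITM3 made up 71.2%, 74.4% and 73.4% in control and 69.9%, 71.1% and 63.8% in EFTUD2 libraries, so that IFITM1 had the larger share in every EFTUD2 library and IFITM3 the smaller. The share of IFITM2 was 20.3% ± 1.43 and 21.9% ± 3.49 (SD, n = 3 each) and overlapped. The ratio of IFITM3 to IFITM1 was 10.9 ± 0.59 in control and 6.97 ± 0.744 in EFTUD2 cells. The 3 genes summed to 336.3 ± 29.8 FPKM in control and 596.6 ± 114.0 FPKM in EFTUD2 cells, and most of that difference in FPKM came from IFITM3.

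These shares rest on how fragments were split between close copies, which the sources used here do not give. In GENCODE release 29, 38.9% of the 50-base windows of the IFITM1 transcript ENST00000328221.5 also occur in transcripts of other genes. Of its windows, 35.5% occur in IFITM2 and 12.3% in IFITM3. The IFITM1 transcripts ENST00000408968.3 and ENST00000528780.5 shared more, with 42.3% and 50.1% of windows found in other genes. For IFITM2 (ENST00000616316.1) the share was 15.8%, and for IFITM3 (ENST00000399808.4) it was 20.3%. An annotated IFITM2 transcript, ENST00000399815.2, runs into IFITM1 and shares 94.3% of its windows, 314, with it. The IFITM1 transcript ENST00000408968.3 had the same number of windows, 314, in IFITM2. Each other coding IFITM2 transcript shared 50 windows with IFITM1. The share of IFITM1 found in IFITM2 thus reflects mostly this overlapping transcript rather than likeness of the copies. Whether that transcript was in the annotation behind the FPKM is unknown. BST2 shared 0 windows with another gene. With the FPKM of IFITM1, IFITM2 and IFITM3 summed, the log2 fold change was 0.81, between that of IFITM3 and that of IFITM2. GENCODE also places antisense genes over IFITM2 and IFITM3, and the sources used here do not say whether strand was used in counting.

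In the deposited FPKM, fold over the control mean was highest in EFTUD2 replicate 2 for all 4 genes. In replicates 1 to 3 it was 2.40, 3.11 and 2.25 for IFITM1 and 1.79, 2.0 and 1.84 for IFITM2. It was 1.67, 2.08 and 1.27 for IFITM3 and 1.32, 1.58 and 1.02 for BST2. On these values IFITM1 and IFITM2 kept most of their difference in replicate 3, IFITM3 kept a smaller part and BST2 stood at the control mean. With median of ratios scaling, BST2 in replicate 3 was at 56.73, above the controls at 36.25, 49.27 and 50.78. IFITM3 was then at 361.3 in replicate 3, against controls at 233.5, 211.7 and 253.8. In FPKM, the level in replicate 3 relative to replicate 2 was 0.722 for IFITM1, 0.922 for IFITM2, 0.611 for IFITM3 and 0.646 for BST2. It was 0.048 for VIM, a far wider spread. VIM, IFITM1, IFITM3 and BST2 ran in the deposited FPKM from replicate 2 over replicate 1 down to replicate 3. IFITM2 was slightly higher in replicate 3 than in replicate 1. With median of ratios scaling, IFITM2 was highest in replicate 3, with EFTUD2 libraries at 122.3, 134.9 and 146.1. IFITM1 was then at 54.33, 69.42 and 58.93, so replicate 3 was above replicate 1. Without EFTUD2 replicate 3 the log2 fold changes were 1.42 (IFITM1), 0.92 (IFITM2), 0.90 (IFITM3) and 0.54 (BST2), so IFITM3 came close to IFITM2 and BST2 remained the lowest. Whether what set EFTUD2 replicate 3 apart in VIM also bore on IFITM3 and BST2 was not tested.

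**Figure D2:**
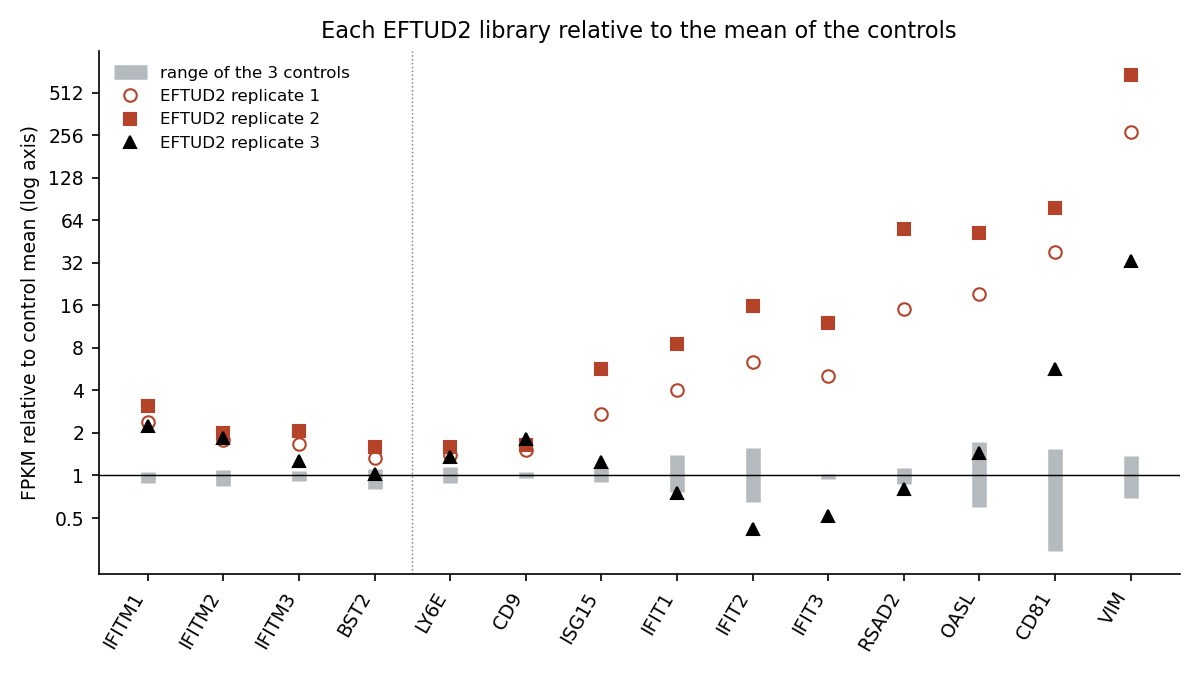
FPKM relative to the control mean (log axis) in each EFTUD2 library for the 4 members, left of the dotted line, and for 10 comparison genes, with grey bars for the range of the 3 controls. In replicate 3 IFITM1 and IFITM2 stay at 2.25 and 1.84 and BST2 is at 1.02, while IFIT3 and RSAD2 fall below the controls.

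Across other scalings the log2 fold change ranged from 1.28 to 1.46 for IFITM1, 0.86 to 1.05 for IFITM2, 0.66 to 0.85 for IFITM3 and 0.33 to 0.51 for BST2. The order of the 4 genes by log2 fold change was the same under each of these scalings.

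**Figure D3:**
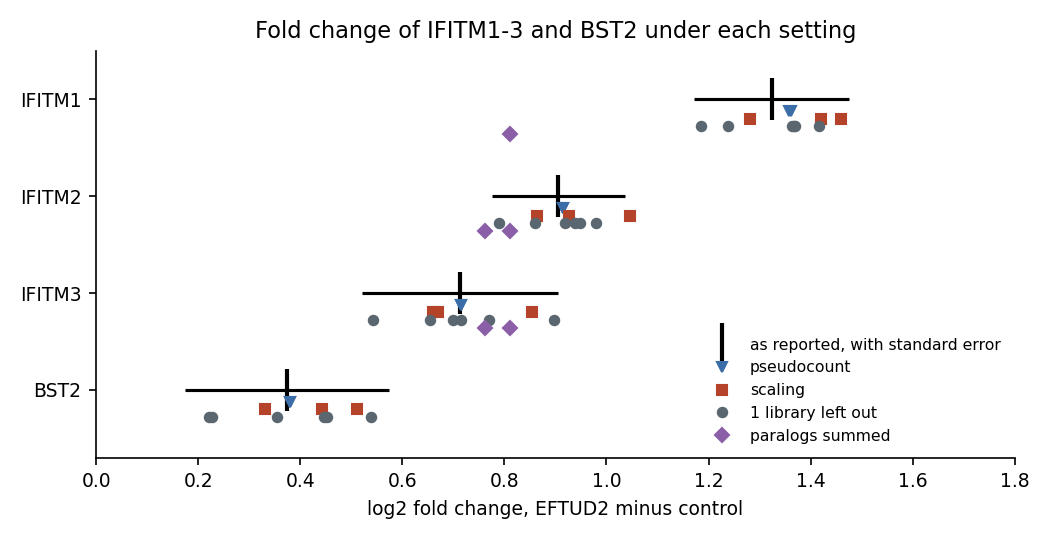
Log2 fold change (EFTUD2 minus control) of each member as reported, with its SE as a horizontal line, and under other pseudocounts, scalings, left-out libraries and summed paralogs. All points are above 0, and with 1 library left out BST2 ranges from 0.22 to 0.54.

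Of 22 interferon ligand genes, 9 were in the table and none exceeded 0.47 FPKM in any library. That highest value was IFNL1, a type III interferon, at 0.03, 0.06 and 0.09 FPKM in control and at 0.18, 0.47 and 0.03 FPKM in EFTUD2 libraries, so the groups overlapped. It was the 1 ligand gene high enough to be tested, with a log2 fold change of 0.20. IFNB1 was listed at 0 in control and at 0.06, 0.03 and 0 FPKM in EFTUD2 libraries. IFNE, IFNW1, IFNK, IFNL2, IFNL3 and IFNA21 reached at most 0.05 FPKM, and IFNA6 was listed at 0 throughout.

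All 20 genes of interferon receptors and signaling were tested. At an unadjusted p under 0.05, 0 were higher and 1 was lower, against 4.40% and 7.90% of all genes tested. The counts in this list were 3 and 2 without EFTUD2 replicate 3, and 1 and 0 with median of ratios scaling. None of the 20 genes had an adjusted p under 0.05, and their median log2 fold change was -0.04, against -0.07 for all genes tested. IFNGR2, a chain of the interferon gamma receptor, stood at 41.38, 37.7 and 38.18 FPKM in control and at 46.58, 43.66 and 68.76 FPKM in EFTUD2 libraries (log2 fold change 0.40, SE 0.18, adjusted p = 0.40, limma). IL10RB, a chain of the type III interferon receptor, had a log2 fold change of -0.33 (adjusted p = 0.40, limma), TYK2 of -0.24 and IRF3 of -0.22.

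Of 42 other interferon-stimulated genes, 40 were tested. None had an adjusted p under 0.05. At an unadjusted p under 0.05, 7 were higher and 3 lower (11 and 1 with median of ratios scaling), against 4.40% and 7.90% of all genes tested. In every EFTUD2 library, 6 were higher and 3 lower, against 7.92% and 19.4% of all genes tested. The median log2 fold change was 0.24, against -0.07 for all genes, and 25 of 40 were positive, against 37.3% of all genes. ISG15, a ubiquitin-like modifier, stood at 31.75, 24.98 and 26.25 FPKM in control and at 75.26, 156.9 and 34.52 FPKM in EFTUD2 libraries (log2 fold change 1.40, SE 0.49, adjusted p = 0.40, limma). IFI44 and DDX60 were at most 0.26 FPKM in control and at 8.70 and 4.49 FPKM in EFTUD2 replicate 2. SP110, a nuclear body protein, was lower, at 5.9, 7.24 and 6.43 against 5.02, 5.10 and 2.83 FPKM (log2 fold change -0.53, adjusted p = 0.40, limma).

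Of the 40 genes, 21 were above every control in EFTUD2 replicate 1 (52.5%, against 20.4% of all genes tested), 29 in replicate 2 (72.5% against 23.7%) and 10 in replicate 3 (against 25.8%). In replicate 3, 23 were below every control (57.5% against 51.3% of all genes tested), so both shares in that library were near those of all genes. IFIT1, IFIT2, IFIT3, RSAD2 and OASL, antiviral effectors chosen after their values were seen, were all higher than control in EFTUD2 replicates 1 and 2. IFIT3 was at 1.92, 1.94 and 1.79 FPKM in control and at 9.46, 22.61 and 0.98 FPKM in EFTUD2 libraries, where replicate 3 was below the controls. OASL was at 2.28, 0.80 and 0.90 against 25.58, 69.58 and 1.91 FPKM. RSAD2 in replicate 3 was 0.014 of its level in replicate 2, where IFITM1 was 0.722. UBE2L6, the conjugating enzyme for ISG15, also chosen after its values were seen, had 36.69, 38.89 and 35.75 FPKM in EFTUD2 libraries against 22.89, 29.42 and 30.64 FPKM in control. In replicate 3, IFITM1, IFITM2, IFITM3 and UBE2L6 were above every control, and IFIT3 and RSAD2 were not. Nothing is read from this contrast. IFITM1 was selected for being higher in every EFTUD2 library, and UBE2L6, IFIT3 and RSAD2 were picked after their values were seen. Without EFTUD2 replicate 3, 4 of the 40 genes had an adjusted p under 0.05 by limma (IFI44, IFIT3, OASL and DDX60). In that setting 18 of the 40 were higher at an unadjusted p under 0.05. Over all 17222 genes tested, the same setting gave 131 genes at the adjusted threshold and 1346 higher at the unadjusted one. Without control replicates 1, 2 or 3 the count of 18 higher genes became 4, 2 and 3, and without EFTUD2 replicates 1 or 2 it became 2 and 3. The count of 3 lower genes was 1, 1 and 0 without control replicates 1, 2 or 3, and 2, 1 and 3 without EFTUD2 replicates 1, 2 or 3.

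**Figure D4:**
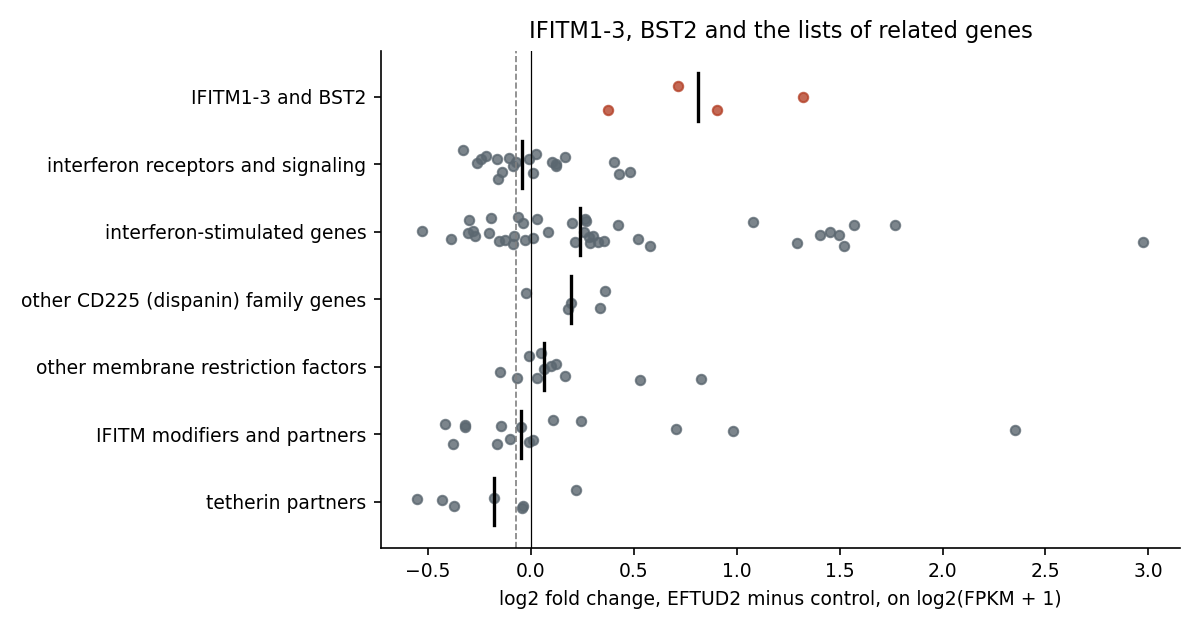
Log2 fold change (EFTUD2 minus control, on log2(FPKM + 1)) of each tested gene by list, 1 point per gene, with short bars for list medians and a dashed line for the median of all genes tested (-0.07). The interferon-stimulated genes have a median of 0.24 with 25 of 40 above 0, and the receptors and signaling genes a median of -0.04.

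Other genes of the CD225 family were low. Of 10, 5 were tested, all 5 overlapped between the groups, and their highest value was 6.56 FPKM, for TMEM91. IFITM5, the bone member of the cluster, was listed at 0 throughout. IFITM10 stood at 0.36, 0.15 and 0.22 FPKM in control and at 0.26, 0.28 and 0.72 FPKM in EFTUD2 libraries. In EFTUD2 replicate 3, 4 of the 5 tested genes were above every control, against 0 in replicates 1 and 2. Over all genes tested the shares were 20.4%, 23.7% and 25.8% for replicates 1 to 3. The 4 genes were low, and TMEM265 among them was listed at 0 in every other library and at 1.0 FPKM in replicate 3. The median log2 fold change of the 5 genes was 0.20 and 4 were positive, and whether they differed from IFITM1, IFITM2 and IFITM3 was not tested.

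Of 12 other membrane restriction factors, 11 were tested. At an unadjusted p under 0.05, 2 were higher and 0 lower, against 4.40% and 7.90% of all genes tested. None passed the adjusted threshold, and the median log2 fold change of the 11 was 0.07. LY6E, a lipid-anchored protein that hinders fusion of coronaviruses, stood at 48.13, 43.71 and 57.2 FPKM in control and at 69.11, 78.95 and 67.63 FPKM in EFTUD2 libraries (log2 fold change 0.53, SE 0.13, adjusted p = 0.39, limma). NCOA7 stood at 6.48, 5.83 and 5.68 against 8.34, 10.47 and 16.84 FPKM (log2 fold change 0.83, SE 0.24, adjusted p = 0.40, limma). SERINC3, which lowers the infectivity of retroviruses, was lower in every EFTUD2 library, as were 19.4% of all genes tested. Its log2 fold change of -0.07 was near the median of all genes tested (-0.07). As with IFITM1, IFITM2 and IFITM3, LY6E was above every control in all 3 EFTUD2 libraries, and NCOA7 was highest in replicate 3.

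Of 16 genes that modify or bind IFITM proteins, 15 were tested. At an unadjusted p under 0.05, 2 were higher and 0 lower, against 4.40% and 7.90% of all genes tested. None passed the adjusted threshold, and the median log2 fold change of the 15 was -0.05. The 2 higher genes were tetraspanins, surface proteins that organise membrane domains. CD9 stood at 26.94, 26.49 and 29.39 FPKM in control and at 42.05, 45.42 and 49.61 FPKM in EFTUD2 libraries (log2 fold change 0.71, SE 0.11, adjusted p = 0.21, limma). CD81, known to bind IFITM1 and to be near absent from Hep G2, stood at 0.05, 0.20 and 0.26 FPKM in control and at 6.49, 13.32 and 0.96 FPKM in EFTUD2 libraries (log2 fold change 2.35, SE 0.66, adjusted p = 0.40, limma). CD81 thus followed VIM in its spread over the EFTUD2 libraries, and CD9 was highest in replicate 3. Without EFTUD2 replicate 3, CD81, CD9 and CAV1 had an adjusted p of 0.022, 0.045 and 0.045 by limma. In that setting 131 of all 17222 genes tested had an adjusted p under 0.05. CAV1 stood at 0.28, 0.12 and 0.09 FPKM in control and at 1.64, 3.19 and 0.09 FPKM in EFTUD2 libraries, so its groups overlapped. ZDHHC20, which palmitoylates IFITM3, and NEDD4, which ubiquitinates it, overlapped between the groups and were chosen after their values were seen.

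Of 8 partners of tetherin, 7 were tested, and none passed the adjusted threshold. At an unadjusted p under 0.05, 0 were higher and 1 lower, against 4.40% and 7.90% of all genes tested. The counts in this list were 1 and 1 with median of ratios scaling and 0 and 2 without EFTUD2 replicate 3. They were 0 and 3 without EFTUD2 replicate 2, and 0 and 0 without control replicate 2. The median log2 fold change of the 7 genes was -0.18, and 4 of 7 were lower in every EFTUD2 library, against 19.4% of all genes tested. Over all genes the latter count fell from 3337 to 1915 with median of ratios scaling. EZR, which links membrane proteins to actin, stood at 53.11, 55.66 and 51.73 FPKM in control and at 42.04, 44.54 and 32.56 FPKM in EFTUD2 libraries (log2 fold change -0.43, SE 0.14, adjusted p = 0.40, limma). RNF115, a ubiquitin ligase that binds tetherin, had a log2 fold change of -0.55 (adjusted p = 0.40, limma), and CAVIN1 of -0.37. ARHGAP44, which links tetherin to actin, was higher in every EFTUD2 library (0.22). LILRA4, the receptor of tetherin on plasmacytoid dendritic cells, was at most 0.01 FPKM.

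The chromosomal neighbours were compared with the members, by genes whose midpoint lay within 100 kb. Around the IFITM cluster 7 neighbours were tested, with a median log2 fold change of 0.00. None was higher in every EFTUD2 library, against 7.92% of all genes tested, and 1, PKP3, was lower, against 19.4%. PKP3 stood at 27.51, 29.16 and 29.14 FPKM in control and at 23.74, 27.08 and 14.39 FPKM in EFTUD2 libraries. PGGHG had the highest log2 fold change among the 7 neighbours (0.60, SE 0.23), and its groups overlapped. Around BST2, 6 neighbours were tested with a median of 0.05. Of these 1, ANO8, was higher in every EFTUD2 library (0.30), against 7.92% of all genes tested. Counts this small are only a description. The lowest log2 fold change of the 3 IFITM genes (0.71, SE 0.19, IFITM3) and the highest of the 7 neighbours (0.60, PGGHG) were closer than either SE, and the difference was not tested. Without EFTUD2 replicate 2 the value of IFITM3 was 0.54.

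**Figure D5:**
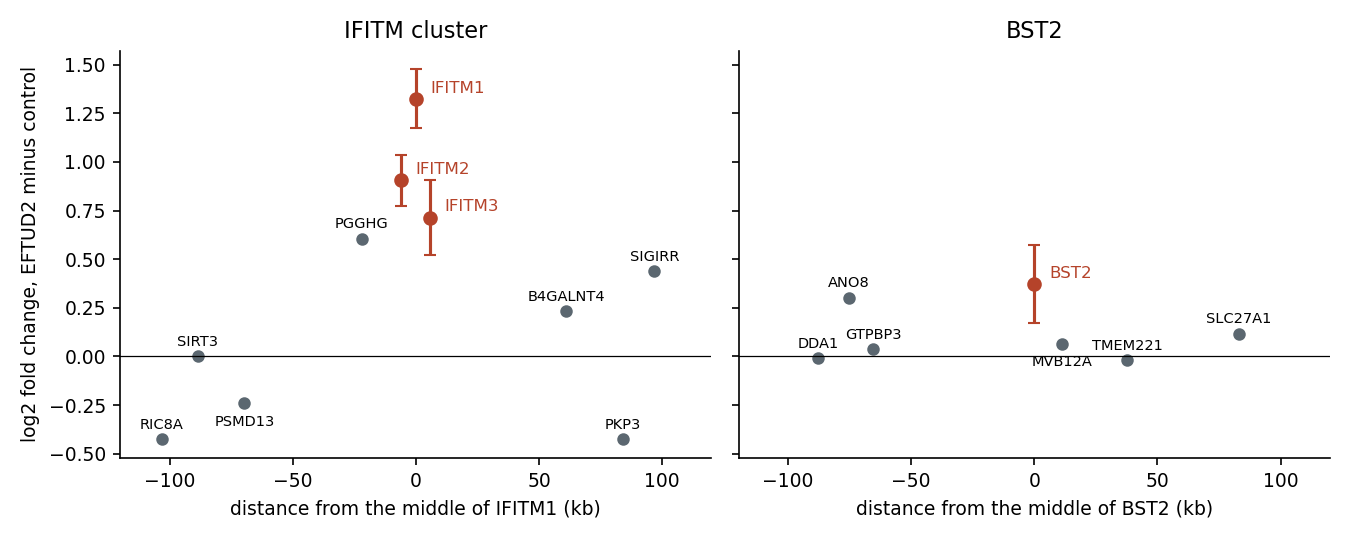
Log2 fold change (EFTUD2 minus control) of tested genes near the IFITM cluster and near BST2, against distance in kb from the middle of IFITM1 or BST2, with members in red and bars for their SE. IFITM1, IFITM2 and IFITM3, are at 1.32, 0.91 and 0.71, and PGGHG is the nearest in value of their 7 tested neighbours, at 0.60.

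Genes with the most similar profiles over the 6 libraries were found among 12554 genes averaging 1 FPKM or more, by the root mean square (RMS) difference of centred log2(FPKM + 1) values. For IFITM1 they were C4BPA (0.168), TNFAIP2 (0.173) and an unnamed gene model of the sequencing provider (0.185), with C4BPA at 7.98, 7.02 and 9.39 FPKM in control and at 20.32, 21.35 and 22.52 FPKM in EFTUD2 libraries. For IFITM2 they were ADAMTSL4 (0.027), XPNPEP2 (0.074) and the same gene model (0.109). ADAMTSL4 at 11.08, 8.54 and 10.29 against 18.83, 21.44 and 19.23 FPKM matched the pattern of IFITM2 closely. For IFITM3 they were SLC19A3 (0.074), RHEBL1 (0.077) and HK1 (0.096), and for BST2 they were UCP2 (0.065), RARG (0.070) and MGST3 (0.073). The members were not each other's nearest profiles. IFITM2 ranked at 15 for IFITM1, while BST2 ranked at 418, and for IFITM3 the ranks of IFITM2 and BST2 were 73 and 126. These likenesses rest on 6 libraries.

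Markers of other cells were checked, since leukocytes and endothelial cells also express the 4 genes. All 12 hepatocyte markers were in the table and summed to 10310 to 15420 FPKM in control and 13490 to 19030 FPKM in EFTUD2 libraries. Of the 12, 3 (SERPINA1, FGG and APOB) were higher in every EFTUD2 library, against 7.92% of all genes tested. The other 9 overlapped between the groups. The log2 fold change was positive in 8 of the 12, and AFP (-0.40), TTR (-0.28) and HNF4A (-0.23) were among those below 0. PTPRC, the defining leukocyte marker, was at most 0.02 FPKM and TYROBP was listed at 0. The 9 leukocyte markers summed to 747.2 to 2265 FPKM in control and 853.9 to 1727 FPKM in EFTUD2 libraries, nearly all of it LYZ, and CD14 was higher (0.60 to 1.03 against 1.41 to 2.51 FPKM). The 4 listed plasmacytoid dendritic cell markers were at most 0.19 FPKM, and the 7 endothelial markers summed to 1.27 to 1.68 FPKM in control and 1.32 to 1.75 FPKM in EFTUD2 libraries. Within that sum CDH5 (0.06 to 0.08 against 0.19 to 0.28 FPKM) and VWF (0.15 to 0.33 against 0.46 to 0.60 FPKM) were higher in every EFTUD2 library, and PECAM1 (0.85 to 1.19 against 0.54 to 0.81 FPKM) was lower in every one. Of the 8 fibroblast markers, COL1A2 was listed at 0 and DCN was at most 0.04 FPKM, but other collagen and matrix genes were higher at low levels. COL3A1 was listed at 0 in all control libraries and at 0.62, 1.49 and 0.14 FPKM in EFTUD2 libraries (adjusted p = 0.40, limma). COL1A1 stood at 0.15, 0.09 and 0.10 against 0.78, 2.05 and 0.11 FPKM, and LUM at most at 0.01 FPKM in control against 0.35, 0.56 and 0.01 FPKM. In the deposited FPKM these 3 genes were highest in EFTUD2 replicate 2, as VIM and the 4 members were. Other fibroblast markers ran the other way over the EFTUD2 libraries, lowest in replicate 2 and highest in replicate 3. These were ACTA2 at 25.23, 24.46 and 40.82 FPKM and PDGFRB at 1.10, 0.68 and 2.07 FPKM. The part of any of these markers in the members' levels was not tested. The fibroblast markers summed to 26.63 to 38.42 FPKM in control and 28.1 to 43.15 FPKM in EFTUD2 libraries, nearly all of it ACTA2. In bulk RNA, a change in the share of cells that express a gene and a change in RNA per cell cannot be told apart.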

How the data were processed

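The 6 libraries were made from TRIzol-extracted, poly-A-selected RNA of Hep G2 cells and read on a BGISEQ-500 instrument. The authors deposited FPKM per gene and library, rounded to 2 decimals. The submitters' processing notes name HISAT2, Bowtie2, RSEM, DESeq2 and hg38 without versions, and the annotation is not given in the sources used here. The table held 0 columns of other samples. A search of low values for a common step (3035 genes, highest share 4.45%) found none, so depth, and the precision it gives, is unknown.

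Groups were taken from the labels. From the deposited FPKM, log2(FPKM + 1) was computed, and the 17222 genes averaging 0.1 FPKM or more were compared by limma 3.58.1 (lmFit, eBayes with trend, R 4.3.3) with Benjamini-Hochberg adjustment. Fold changes understate low genes on this scale. The script was tested on simulated data. Of the 23524 genes, 18449 matched RefSeq (GRCh38.p14), from which promoters were read, and no promoter of IFITM2 was used. Python 3.11.15 and pandas 2.3.3 were used for the other steps.

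The members and gene lists were chosen with earlier results of these data known. Genes named were the members and EFTUD2, up to 4 genes per list with the largest change among those with a mean of at least 1 FPKM and no overlap, the listed interferon ligands, genes within 100 kb, the 3 nearest profiles per member, and VIM, CD44, KRT17 and LDHB. Any other gene was chosen after its values were seen. Values of some listed genes are not reported. Alternatives were pseudocounts of 0.1 and 0.01, other filters and scalings, robust empirical Bayes, the replicate number as a block, each library left out, and summed IFITM genes.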

Additional observations from a re-analysis of the deposited data

How the results depend on the processing

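The log2 fold changes of the 4 members stayed above 0 under every alternative run. With each library left out in turn they ranged from 1.19 to 1.42 (IFITM1), 0.79 to 0.98 (IFITM2), 0.54 to 0.90 (IFITM3) and 0.22 to 0.54 (BST2). Summing IFITM1, IFITM2 and IFITM3 gave 0.81 in place of 1.32 for IFITM1, since IFITM3 makes up most of the sum. The count of genes with an adjusted p under 0.05 (limma) was 0 under every alternative except without EFTUD2 replicate 3, where it was 131, so the range over left-out libraries was 0 to 131. At an unadjusted p under 0.05, 757 genes were higher and 1361 lower. These counts ranged from 372 to 1346 and from 673 to 1542 with 1 library left out. With a mean of at least 1 FPKM, where fewer genes were tested, 480 were higher. With median of ratios scaling 1202 were higher and 756 lower, which moved the higher share of calls from 35.7% to 61.4% and the median log2 fold change of all genes from -0.07 to 0.02. Under that scaling 2287 genes were higher and 1915 lower without overlap, a count added after the data were seen. Its cause was not tested. The replicate block gave 774 higher and 1253 lower genes and 0 adjusted calls. Deviations of same-numbered libraries from their group means correlated at -0.299, 0.353 and -0.0936 over genes. Control replicate 2 correlated at 0.321 with EFTUD2 replicate 1 as well, and control replicate 1 at 0.382 with EFTUD2 replicate 3. With 3 libraries per group these values are not independent, so they cannot decide whether replicate numbers pair the libraries. Depth is unknown, so limits for low values such as the interferon ligands cannot be given.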
